A study of Rattus norvegicus with 10 samples.

Results

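The response of PCCl3 cells to FoxE1 silencing was followed culture by culture, to see which genes changed in only some of the 4 cultures and which changed alike in all of them. The members were the 8 arrays, of 10 in all, that each held RNA of single cultures. Both remaining arrays held pooled RNA with the dyes swapped and were used only as a check. For each gene the log2 ratios of siFoxE1 over siScramble and of siFoxE1 over wt were averaged for each replicate number, which gave 4 culture values. Cultures 3 and 4 (4 arrays) were then set against cultures 1 and 2 (4 arrays). D is the mean ratio of cultures 3 and 4 minus that of cultures 1 and 2, and M is the mean ratio of all 4 cultures, both on the log2 scale.

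PCCl3 is a rat thyroid cell line that retains thyroid functions and depends on added hormones for growth. The siFoxE1 PCCl3 cells received an siRNA pool against FoxE1 at 25 nM, the siScramble PCCl3 cells received a non-silencing siRNA at 25 nM, and wt PCCl3 cells were left untransfected. RNA was taken 48 h after transfection. The study's design gives both arrays of a number the same siFoxE1 extract, so the 2 ratios of a culture are not independent and the culture is the replicate. The labels give siScramble and wt cells the same numbers, without saying more about how the cultures were matched. All 4 cultures were of 1 cell line, and the arrays measured only mRNA. The study also blotted FoxE1 protein from the array samples and reported that silencing lowered it, which was not analysed here.

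FoxE1 is a forkhead transcription factor that thyroid follicular cells need for their development and for thyroid gene expression. These cells make and secrete large amounts of thyroglobulin, which is folded in the endoplasmic reticulum (ER). When unfolded proteins build up there, the sensors Ern1 (IRE1), Atf6 and Eif2ak3 (PERK) start the unfolded protein response. Through Atf6 and Xbp1 it raises transcription of chaperones, folding enzymes and degradation factors, many of whose promoters carry an ER stress response element.

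Some of the genes with the most unequal responses hold this element in their promoters, and 5 of these stretches are shown first. The element was searched as CCAAT followed after 9 bases by CCACG, on both strands from 250 bases before to 50 bases after each gene start in RefSeq (GRCr8). The stretches below run along the strand of the gene, and the capitals mark the fixed bases at both ends of the element, which read CGTGG and ATTGG where it lies on the other strand.
Hspa5, chr3:38452953-38453011, plus strand: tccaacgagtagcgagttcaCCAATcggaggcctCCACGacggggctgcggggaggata
Derl3, chr20:12766581-12766639, minus strand: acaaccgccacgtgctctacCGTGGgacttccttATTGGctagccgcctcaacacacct
Hsp90b1, chr7:23012431-23012489, minus strand: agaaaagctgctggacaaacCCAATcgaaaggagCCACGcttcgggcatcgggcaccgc
Creld2, chr7:121789219-121789277, plus strand: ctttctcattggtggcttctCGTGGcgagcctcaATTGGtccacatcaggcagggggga
Dnajc3, chr15:102432514-102432572, plus strand: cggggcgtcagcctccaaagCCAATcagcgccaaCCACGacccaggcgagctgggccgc
The match is a description of the sequence and not a measured binding site.

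The arrays were of even quality. Of 58717 spots per array, 56.8 to 60.3% were well above background in the siFoxE1 channel and 60.6 to 68.2% in the reference channel of the 8 arrays, and no spot was saturated. In all, 9718 genes were tested, each by its brightest probe. The siFoxE1 extract of a culture was read on 2 arrays, and these readings differed by a median of 0.06 and by 0.29 at the 95th percentile on the log2 scale. The array of siScramble culture 3 lay on another slide than the other individual arrays, whereas all arrays against wt shared 1 slide, so values against wt alone are within 1 slide. Of the follicular cell genes, the thyroglobulin gene Tg and the iodide symporter gene Slc5a5 were measured above background in all cultures. Of the markers of other cell types, 1 of 8 for endothelium, 3 of 12 for fibroblasts, 8 of 12 for leukocytes and 3 of 8 for thyroid C cells passed the filter on dim probes. The log2 of the summed intensity of the 8 tested leukocyte markers ranged from 9.98 to 10.20 in cultures 1 and 2. In cultures 3 and 4 it ranged from 9.90 to 10.21. None of the markers of other cell types depended on the culture. Their part in the results was not tested.

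The response was wider in cultures 3 and 4. In culture 3, 147 genes were at least 2-fold lower and 88 at least 2-fold higher in siFoxE1 PCCl3. In culture 4 these numbers were 42 and 45, whereas in culture 1 they were 2 and 19 and in culture 2 they were 3 and 4. The SD of the ratio over all genes was 0.21, 0.17, 0.40 and 0.30 in cultures 1 to 4. Across genes, the ratios of cultures 3 and 4 correlated at r = 0.87, those of cultures 1 and 2 at r = 0.48, and those of cultures 2 and 3 at r = 0.27. These coefficients describe 9718 genes of the same arrays and are not independent replicates.

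A response was called culture-dependent when D was at least 1 in size and the arrays of cultures 3 and 4 lay on one side of those of cultures 1 and 2 in each comparison. This held for 54 genes that were lower in siFoxE1 PCCl3 in cultures 3 and 4 (0.556% of the genes tested) and for 8 that were higher there (0.0823%). Without the size limit, arrays fell on separate sides for 16.6% of all genes in the lower and 20.2% in the higher direction, so the size carries the call. limma on the 4 culture values passed D of 349 genes as lower (3.59%) and 238 as higher (2.45%) at an adjusted p under 0.05. The split of cultures was proposed with results of these data known, and each side has 2 cultures. These p values weigh D against the spread within the sides and are not independent evidence. Without culture 3 the lower genes numbered 24 and without culture 4 they numbered 106, and without culture 2 limma passed none in either direction (unadjusted p under 0.05 for 1734 genes). limma also passed no D with the Agilent processed signals, without the filter on dim probes or on wt arrays alone, so no D named below passed it in those settings.

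The 54 lower genes were led by the ER folding machinery. Derl3, a factor that carries misfolded proteins out of the ER, had log2 ratios of -0.49, -0.35, -5.21 and -2.91 against siScramble PCCl3 in cultures 1 to 4. Against wt PCCl3 its ratios were -0.89, -0.33, -5.50 and -3.01. Both arrays of cultures 3 and 4 therefore lay far below all others, and D was -3.64 (standard error 0.605, limma adjusted p = 0.025, n = 4 cultures), a 12.5-fold difference. Another probe of Derl3 gave a smaller D of -2.25. The signal of Derl3 in culture 2 was low in every cell state, which limits how far its ratio there could fall. In bulk RNA like this, fewer cells of a kind and less RNA per cell cannot be told apart. Hspa5, which encodes the main ER chaperone BiP, had culture values of -0.17, -0.12, -3.59 and -1.28. Its D of -2.29 did not pass limma (adjusted p = 0.059), since cultures 3 and 4 differed widely from each other. Hsp90b1, the ER chaperone Grp94, had values of -0.02, -0.12, -2.81 and -1.64 (D -2.16, limma adjusted p = 0.0184). Again cultures 1 and 2 were near 0 and culture 3 was the lowest.

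The chaperones and foldases were a group of 33 measured genes. Of these, 16 were culture-dependent and lower, none was higher, and limma passed D of 18. The median ratio of the group was -0.13, -0.05, -1.10 and -0.80 in cultures 1 to 4, and its median D was -0.81, compared with 0.02 over all genes tested. Hyou1, an ER chaperone of the Hsp70 family, had -0.24, 0.26, -2.41 and -1.55. Creld2, a secreted ER stress gene, had -0.26, 0.10, -2.81 and -1.70. In both, culture 2 was slightly above 0 and cultures 3 and 4 were well below it. D was lower by limma also for the BiP cochaperones Dnajc3 (-1.92) and Dnajb9 (-1.82), the disulfide isomerase Pdia4 (-1.81), the calcium-binding chaperone Calr (-1.68) and the secreted ER factor Manf (-1.40). Their ratios in culture 3 ranged from -2.16 for Calr to -2.69 for Dnajc3.

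Degradation and transport genes followed with smaller values. Among 20 measured genes of ER-associated degradation, 3 were culture-dependent and lower and the median D was -0.44. Sel1l, the adaptor of the ER ubiquitin ligase Syvn1, had ratios of -0.46, -0.01, -2.29 and -1.46 (D -1.65, and -1.06 by another probe). Herpud1, another component of that complex, was already lower in cultures 1 and 2, at -0.81 and -0.59, and had -2.55 and -0.97 in cultures 3 and 4. Its D of -1.06 did not pass limma (adjusted p = 0.152). Of 36 genes of ER to Golgi transport 3 were culture-dependent, with a median D of -0.46. They included the COPII coat gene Sec23b (D -1.11), the tethering factor gene Uso1 (-1.16) and the cargo receptor gene Tmed7 (-1.20, with other probes at -0.98 and -0.78). Of 26 translocon and signal peptidase genes 2 were, namely the signal peptidase gene Spcs3 (-1.34) and the oligosaccharyltransferase gene Ostc (-1.04), and the median D was -0.46.

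The sensors had smaller differences than the chaperones. In the group of 10 sensors and effectors 1 gene was culture-dependent and the median D was -0.05. That gene was Atf6, with ratios of -0.20, 0.13, -1.35 and -0.88 (D -1.08, limma adjusted p = 0.0242), and another probe of Atf6 gave a D of -0.64, under the size limit. Eif2ak3 had a D of -0.63 (limma adjusted p = 0.0242), whereas Ern1 had -0.15 (adjusted p = 0.371). Xbp1, which encodes the transcription factor activated by Ern1, had 0.00 in cultures 1 and 2, -1.26 in culture 3 and -0.34 in culture 4 (D -0.80, adjusted p = 0.0913). Ddit3, the stress factor Chop, had 0.22, -1.05, -2.46 and -0.51, so that cultures 1 and 4 lay above cultures 2 and 3 and the split did not separate them. Of the 20 integrated stress response genes 1 was culture-dependent, the stress regulator Nupr1 (D -1.06), and the median D was -0.05. The 19 cytosolic aminoacyl-tRNA synthetases had a median D of -0.26 with none called, although their ratios were below 0 in every culture, with medians of -0.20, -0.15, -0.57 and -0.27.

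The ER groups above held 33, 20, 36, 26 and 10 of the 9718 genes tested, with some genes in more than 1 group. Of the 54 lower genes, 22 belonged to these groups. Others were Etv5, an Ets transcription factor downstream of ERK signalling (-0.56, -0.26, -2.0 and -1.30), and Dusp5, a nuclear ERK phosphatase (-0.22, -0.18, -1.52 and -0.91). Another probe of Etv5 gave a D of -0.56, below the size limit. Ggct, an enzyme of glutathione turnover, had a D of -1.79, and Ankrd37, a hypoxia-induced gene, had -1.64. Cox6a2, a subunit of cytochrome oxidase, was above 0 in culture 1 at 0.56 and had -0.13, -2.32 and -0.91 in cultures 2 to 4. Among the other groups, the median D was -0.14 for 20 cytosolic heat shock genes, 0.06 for 28 hypoxia and glycolysis genes, 0.02 for 24 NRF2 and glutathione genes, 0.02 for 28 ribosomal proteins and 0.09 for 32 proteasome subunits. The medians of 8 more groups, among them cholesterol synthesis (-0.06), early genes induced by cAMP (-0.04) and epithelial adhesion genes (0.05), ran from -0.16 for the methionine cycle to 0.05. In 53 of the 54 lower genes culture 3 lay below culture 4, and in 45 both cultures 1 and 2 were within 0.5 of 0. The SD over all genes was 0.21 and 0.17 in these cultures, so values within 0.5 of 0 are not particular to the class. limma passed D of 50 of the 54 lower genes and the mean response M of none. It used the culture values on which the class was chosen, so this is no further evidence. The members not named elsewhere in the text were Amigo3, Atp2b1, Bnip3, Eif1a, Gas5, Gmppb, Gng8, Igf2bp2, Il23a, Lcn2, Mfsd2a, Piga, Plpp5, Rbm15b, Saraf, Sat1, Selenok, Serp1, Slfn4, Tm4sf1 and Zfp386 and the ER folding genes P4hb, Pdia3, Pdia6 and Sdf2l1, with D between -1.51 for Igf2bp2 and -1.04 for Selenok. Just inside the size limit were Dusp5 and Txndc11, both at -1.01, and just outside were Ficd (-0.99) and Gp1bb (-0.98). The pooled arrays, made from the same cultures, gave a ratio below 0 on both for 53 of the 54. Other probes of the culture-dependent genes, 15 in all, had a D of the same sign, but those of Atf6 (-0.64), Atp2b1 (-0.72), Slfn4 (-0.52) and Tmed7 (-0.98 and -0.78) and 1 of 2 for Ggct (-0.66) were under the size limit. Separately, the list of genes changed in both comparisons, as far as analysed here, held 54 genes chosen on these samples, of which 27 were culture-dependent and lower and 2 higher.

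**Figure D1:**
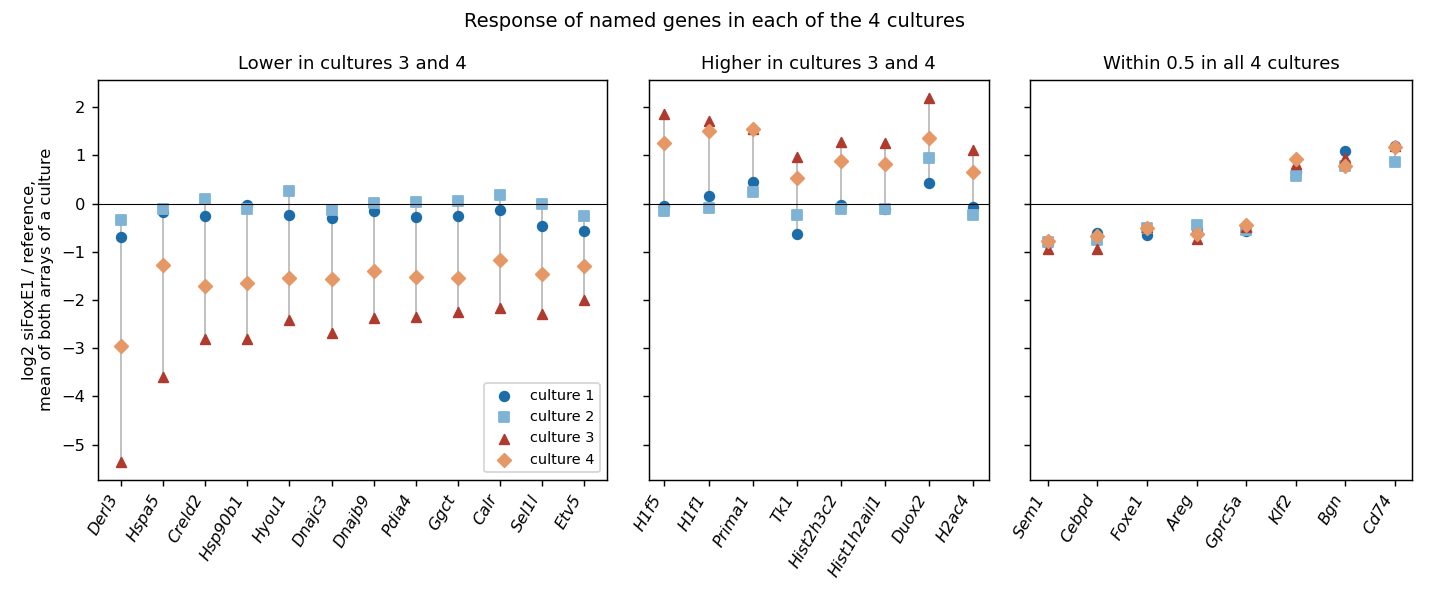
The log2 ratio of siFoxE1 over reference (vertical axis), as the mean of both arrays of a culture, is plotted for named genes in 3 panels: lower in cultures 3 and 4, higher there, and within 0.5 in all 4 cultures, with 1 mark per culture. Derl3 and Hspa5 lie within 0.7 of 0 in cultures 1 and 2 and at -5.35 and -3.59 in culture 3, whereas the marks of Foxe1 lie between -0.65 and -0.48.

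The ER stress element described above was rare among all promoters. It was found in 21 of 27457 promoters (0.0765%) and in 14 of the 8008 tested genes with a promoter sequence (0.175%). Of the 54 lower genes 45 had a promoter sequence and 8 held the element (17.8%), namely Calr, Creld2, Derl3, Dnajc3, Ero1b, Hsp90b1, Hspa5 and Zfand2a. Seen from the element, 8 of its 14 tested genes were culture-dependent and lower, compared with 0.562% of all tested genes with a promoter. The median ratios of these 14 genes were -0.14, -0.01, -1.64 and -1.04 in cultures 1 to 4. Genes with the element that were not lower in cultures 3 and 4 included Ankmy2, with ratios between 0.06 and 0.25, Ppm1l, with ratios between -0.01 and 0.23, and Birc5, a mitotic inhibitor of apoptosis, which was higher at 0.73 in culture 3. The related ERSE-II element, ATTGG and CCACG with 1 base between them, was added after the values were seen and was found in 15 of all promoters and in 4 of the 45, those of Dnajb11, Ggct, Herpud1 and Hyou1. The ATF4 and C/EBP element TGATGNAA was found in 3 of the 45 (6.67%), in 2.16% of tested genes and in 3.82% of all promoters. The pair TTGG and ACAAA, the letters that the study's methods give for NF1 and FoxE1 sites, was found 5 to 30 bases apart in 3 of the 45 (6.67%), in 4.32% of tested genes and in 6.46% of all promoters. The study also names a core with its letters in another order, AAACA, and searched longer promoters, neither of which was done here. No match in a window of this length says nothing about elements elsewhere.

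A ratio near 0 came from opposite levels in cultures 1 and 2. The normalized log2 intensity of each channel, averaged over both arrays for the siFoxE1 extract where one value is given, was compared between cultures, for each gene separately. The levels make up the ratios, so they describe the calls above and are no further evidence for them. In wt PCCl3, Derl3 had a level of 15.09, 7.16, 14.54 and 14.04 in cultures 1 to 4, and in siScramble PCCl3 it had 14.66, 7.26, 13.43 and 13.80. Culture 2 was thus far below the other cultures in both reference cells. In siFoxE1 PCCl3 the levels were 14.19, 6.87, 8.63 and 10.96, so culture 1 stayed high, culture 2 was low in all 3 cell states, and cultures 3 and 4 were low or intermediate only after silencing. On the scanner, before any normalization, the median spot signal of Derl3 in the wt channel was 32791, 112, 27813 and 15885. In the siFoxE1 channel of the same arrays it was 18904, 116, 479 and 1662. The median background of the culture 2 array was 22.5 in the wt and 55 in the siFoxE1 channel. Its low Derl3 signal thus left too little room for a fall as large as that in culture 3. The ratio near 0 in culture 2 therefore does not show a lack of response.

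The chaperones had the same arrangement. Hspa5 levels in wt PCCl3 were 16.66, 13.79, 17.14 and 17.05 and those in siFoxE1 PCCl3 were 16.69, 13.69, 13.26 and 15.82. Hsp90b1 had 15.19, 11.76, 14.07 and 14.38 in siScramble and 15.35, 11.73, 11.72 and 12.74 in siFoxE1 PCCl3. For both genes siFoxE1 culture 3 was within 0.5 of the level of siFoxE1 culture 2, which was low in all 3 cell states. Hyou1 had 14.71, 11.37, 14.16 and 13.98 in wt and 14.37, 11.62, 11.25 and 12.22 in siFoxE1 PCCl3. Outside the ER machinery, Etv5 followed with 11.76, 9.38, 11.74 and 11.64 in wt PCCl3 and with 9.13, 9.24 and 10.12 in cultures 2 to 4 of siFoxE1 PCCl3. Ddit3 differed, since siFoxE1 culture 4 was at 16.01, above culture 1 at 15.87, while culture 2 was again the lowest at 10.82.

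**Figure D2:**
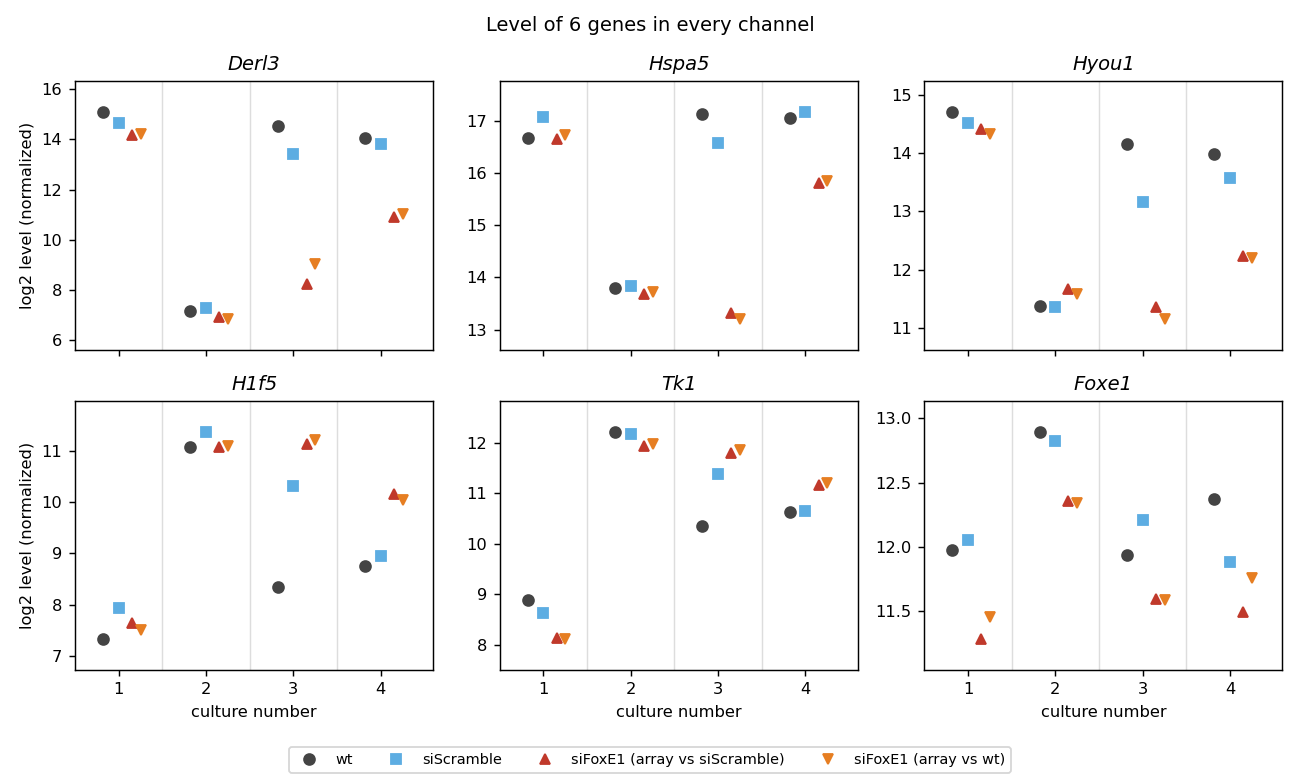
Normalized log2 level (vertical axis, with its own range in each panel) of 6 genes is plotted by culture number for wt, siScramble and both readings of siFoxE1 PCCl3, with 1 mark per channel of an array. For Derl3 the 3 cell states lie together at a high level in culture 1 and at a low level in culture 2, and siFoxE1 PCCl3 separates from both references in cultures 3 and 4.

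This arrangement was shared by the whole class. Culture 2 had the lowest level in both reference cells for 54 of the 54 lower genes, compared with 26.6% of all genes. Culture 1 had the highest siFoxE1 level on both arrays for 50 of the 54, compared with 24.5% of all genes. In wt PCCl3, culture 2 lay at least 2-fold below each of the other cultures for 47 of the 54, compared with 1.74% of all genes. Relative to each gene's own mean over 16 channel values, the median wt level of the class was 1.23, -1.01, 1.00 and 0.83 in cultures 1 to 4. In siScramble PCCl3 it was 1.06, -1.08, 0.25 and 0.69, and in siFoxE1 PCCl3 on the siScramble arrays it was 0.98, -1.10, -1.14 and -0.37. Among all 9718 genes, 7.74% differed at least 2-fold between wt cultures 1 and 2 and 5.24% between wt cultures 2 and 3, compared with 0.26% between cultures 1 and 3. In siScramble PCCl3 6.70% differed between cultures 1 and 2, but 1.28% between cultures 2 and 3 and 1.37% between cultures 1 and 3, so culture 3 lay between the others there. After silencing 5.82% differed between cultures 1 and 3 and 0.42% between cultures 2 and 3. Whether culture or handling set the levels of the untransfected wt cells cannot be told apart, since each number was 1 culture per cell state. In the transfected cells, transfection cannot be told apart from these either.

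**Figure D3:**
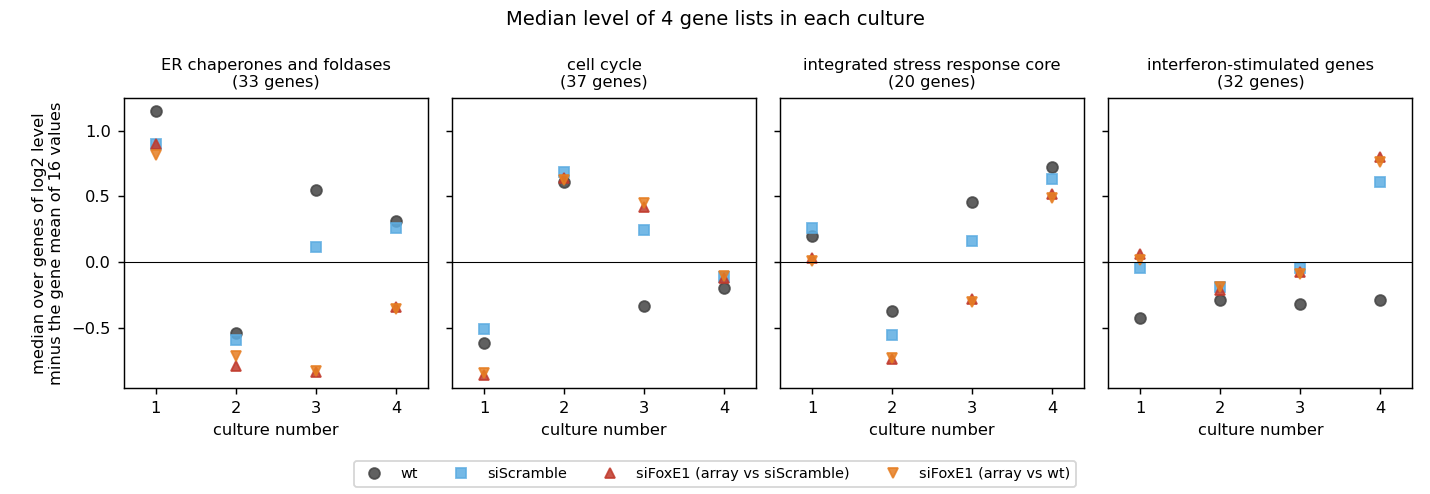
The median over the genes of a group of the log2 level minus the gene's own mean of 16 values (vertical axis) is plotted by culture number for wt, siScramble and both readings of siFoxE1 PCCl3, for ER chaperones, cell cycle, integrated stress response and interferon-stimulated genes. The ER chaperones are low in culture 2 in all 3 cell states and low in culture 3 in siFoxE1 PCCl3, the cell cycle genes run the other way, and the interferon-stimulated genes are high in culture 4 in both transfected states.

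The 8 genes with a higher ratio in cultures 3 and 4 were histone and replication genes and 2 others. The linker histone gene H1f5 had ratios of -0.29, -0.29, 0.82 and 1.22 against siScramble and 0.18, 0.00, 2.88 and 1.28 against wt PCCl3. Its D was 1.65 (standard error 0.178, limma adjusted p = 0.0131, n = 4 cultures), and in culture 3 the ratio against wt was well above that against siScramble. H1f1, another linker histone, had culture values of 0.16, -0.09, 1.71 and 1.51 (D 1.57). The histone genes Hist2h3c2, Hist1h2ail1 and H2ac4 had a D of 1.16, 1.16 and 1.04, although histone genes are close copies of each other and their probes may share targets. Tk1, the thymidine kinase of dividing cells, had -0.63, -0.24, 0.96 and 0.54, below 0 in cultures 1 and 2 and above 0 in cultures 3 and 4 (D 1.18, limma adjusted p = 0.0195). Prima1, which anchors acetylcholinesterase in membranes, had 0.44, 0.24, 1.55 and 1.54 (D 1.21), but another probe gave a D of 0.47, under the size limit. Duox2, an oxidase that makes the hydrogen peroxide used in thyroid hormone synthesis, was above 0 in every culture, with 0.42, 0.95, 2.19 and 1.36 (D 1.09, limma adjusted p = 0.0528).

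These genes mirrored the ER genes in level. H1f5 was at 7.34, 11.09, 8.34 and 8.76 in wt and at 7.58, 11.09, 11.17 and 10.10 in siFoxE1 PCCl3, so siFoxE1 culture 3 again had the level of culture 2. Tk1 was at 8.89, 12.22, 10.35 and 10.63 in wt and at 8.13, 11.95, 11.82 and 11.18 in siFoxE1 PCCl3. Duox2 was at 7.97, 10.96, 8.18 and 8.84 in wt and at 8.52, 11.93, 11.06 and 10.02 in siFoxE1 PCCl3. For all 8 genes culture 2 had the highest level in both reference cells (27.8% of all genes) and culture 1 the lowest siFoxE1 level (24.5% of all genes).

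D was above 0 for 5141 of all 9718 genes tested. Among the 37 measured cell cycle genes it was above 0 for 33, mostly without passing the test. Their median ratio was -0.32, 0.08, 0.42 and 0.06 in cultures 1 to 4 and their median D was 0.42. Only Tk1 was called culture-dependent, and limma passed D of 2, Tk1 and the mitotic kinesin gene Kif20a (D 0.75). In level, culture 2 was the highest in both reference cells for 36 of the 37 genes and culture 1 had the lowest siFoxE1 level for 34. The 23 histone genes, a group chosen after the values were seen, had a median D of 0.51, with 5 culture-dependent. Of 21 thyroid differentiation genes 1, Duox2, was culture-dependent and the median D was 0.27. In this group limma also passed D of the transcription factor gene Pax8, which turned from -0.03 and -0.40 in cultures 1 and 2 to 0.43 and 0.33 in cultures 3 and 4. Slc5a8, a monocarboxylate transporter, did likewise with -0.10, -0.30, 0.39 and 0.28.

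**Figure D4:**
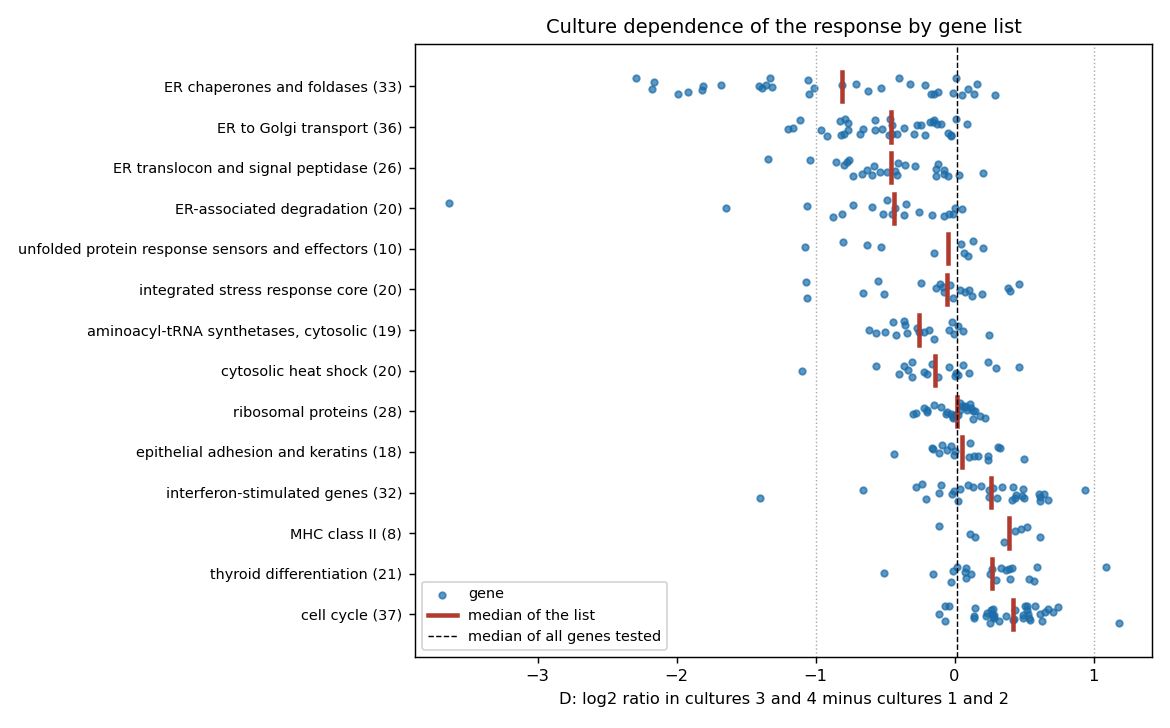
D, the log2 ratio of cultures 3 and 4 minus that of cultures 1 and 2 (horizontal axis), is plotted for each gene of 14 groups (points), with the group median as a red bar, the median of all genes tested as a dashed line and dotted lines at -1 and 1. The median is -0.81 for the ER chaperones and 0.42 for the cell cycle genes.

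The interferon-stimulated genes differed by culture and by reference. Their median ratio over 32 genes against wt PCCl3 was 0.42, 0.14, 0.23 and 1.23 in cultures 1 to 4, whereas against siScramble PCCl3 it was 0.09, 0.05, 0.03 and 0.26. On the wt array of culture 4, 19 of the 32 were at least 2-fold higher, compared with 0.78% of all genes, and 1 was on the siScramble array of that culture. Isg15, a ubiquitin-like antiviral protein, had levels of 10.60, 11.59, 11.48 and 12.93 in siFoxE1 PCCl3, 10.57, 11.28, 10.90 and 11.87 in siScramble PCCl3 and 9.49, 11.02, 10.17 and 10.13 in wt PCCl3. Culture 4 was thus the highest in both transfected states but not in wt cells. None of the 32 was culture-dependent in the higher direction and 1, Ifi27l2b, was in the lower.

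Another set of responses was nearly equal in all cultures. limma passed M of 173 genes as lower (1.78%) and of 239 as higher (2.46%), numbers that rested on single cultures: without culture 1 they were 1 and 2, without culture 4 they were 1 and 1, and without culture 2 they were 582 and 675. A gene was called steady when M was at least 0.5 in size, all 8 arrays had one sign and the 4 culture values spanned at most 0.5. This held for 24 lower (0.247%) and 37 higher genes (0.381%). limma passed M of all of them, but the class was chosen on the same culture values, so this is no further evidence. Without culture 2 the steady genes numbered 115 lower and 183 higher. siFoxE1 was in Cy5 on all 8 arrays, so a dye effect of a probe would look like a steady response. On the pooled arrays, where the dyes were swapped, 20 of the 61 kept the sign of M and at least 50% of its size on both, 11 lower (0.113%) and 9 higher (0.0926%), whereas 14 had the opposite sign on both. Adam34, for example, had an M of 1.16 but -0.56 and -0.80 on the swapped arrays, and Pkib had an M of 0.62 but -0.74 and -0.75. Such genes are not described as FoxE1 responses.

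Foxe1 itself was steady. Its ratios were -0.77, -0.46, -0.62 and -0.39 against siScramble and -0.52, -0.55, -0.35 and -0.62 against wt PCCl3. The culture values of -0.65, -0.51, -0.48 and -0.50 did not separate cultures 3 and 4 from cultures 1 and 2, with a D of 0.08 (standard error 0.101, limma adjusted p = 0.643). M was -0.54 ± 0.07 (SD, n = 4 cultures, limma adjusted p = 0.0219), and the swapped arrays gave -1.03 and -1.21. The residual Foxe1 level was 11.37, 12.35, 11.59 and 11.62 in siFoxE1 PCCl3, compared with 11.97, 12.90, 11.93 and 12.37 in wt PCCl3. In the same cultures the Hspa5 ratio ranged from -0.12 to -3.59. The fall of Foxe1 was larger on the swapped arrays, so its size depends on the arrays used. These values are mRNA, and the size of the protein fall that the study reported was not compared with them. A link between the Foxe1 ratio and the other responses was not tested.

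Other genes fell by similar amounts in all cultures. Sem1, a small subunit of the proteasome lid, had culture values of -0.83, -0.79, -0.94 and -0.77 (M -0.83 ± 0.08, SD, n = 4 cultures, limma adjusted p = 0.0047), and the swapped arrays gave -0.81 and -0.84. Its level in siFoxE1 PCCl3 was 12.43, 13.01, 12.57 and 12.55, below siScramble and wt in every culture. The transcription factor gene Cebpd had an M of -0.75, the EGF receptor ligand gene Areg -0.58 and the retinoid-induced receptor gene Gprc5a -0.51. Ahcy, the enzyme that breaks down S-adenosylhomocysteine, had a larger fall, with -2.05, -1.50, -2.07 and -1.93 and -1.77 and -1.68 on the swapped arrays. Its culture values spanned 0.57, just past the limit. Tg, the thyroglobulin gene, had small culture values of -0.12, -0.12, -0.12 and -0.08 that did not pass limma (M -0.11, adjusted p = 0.183), and in culture 4 its ratio was 0.06 against siScramble and -0.21 against wt PCCl3.

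Cd74, the chaperone of MHC class II molecules, had the largest M of the 9 higher genes kept on the swapped arrays. Its culture values were 1.20, 0.87, 1.20 and 1.17 (M 1.11 ± 0.16, SD, n = 4 cultures, limma adjusted p = 0.0047), and the swapped arrays gave 1.27 and 1.30. It rose at different starting levels, since its wt level was 9.26, 8.68, 8.63 and 9.34 and its siFoxE1 level 10.79, 9.45, 9.73 and 10.44. Of 8 class II genes none was culture-dependent, but only 1 was steady and their median D was 0.39. D was above 0 for 7 of them, and limma passed D of 3 of the 8 as higher, compared with 2.45% of all genes. RT1-Da, a class II alpha chain, had 0.83, 0.66, 1.30 and 1.14, and RT1-Db1, a beta chain, had 1.09, 0.89, 1.40 and 1.28. Bgn, the matrix proteoglycan biglycan, had an M of 0.90 and 0.60 and 0.62 on the swapped arrays, although its other probe gave -0.23. The flow-responsive transcription factor gene Klf2 had an M of 0.74. Cdh1, the adhesion protein E-cadherin, was higher in every culture, with 1.31, 0.74, 1.57 and 1.49, and spanned 0.83, so it was neither steady nor culture-dependent (D 0.50, limma adjusted p = 0.118). Adamts9, a matrix protease, and S100a4, a calcium-binding protein, were higher everywhere and more so in cultures 3 and 4, with D of 0.60 (limma adjusted p = 0.0305) and 0.73 (0.0476).

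**Figure D5:**
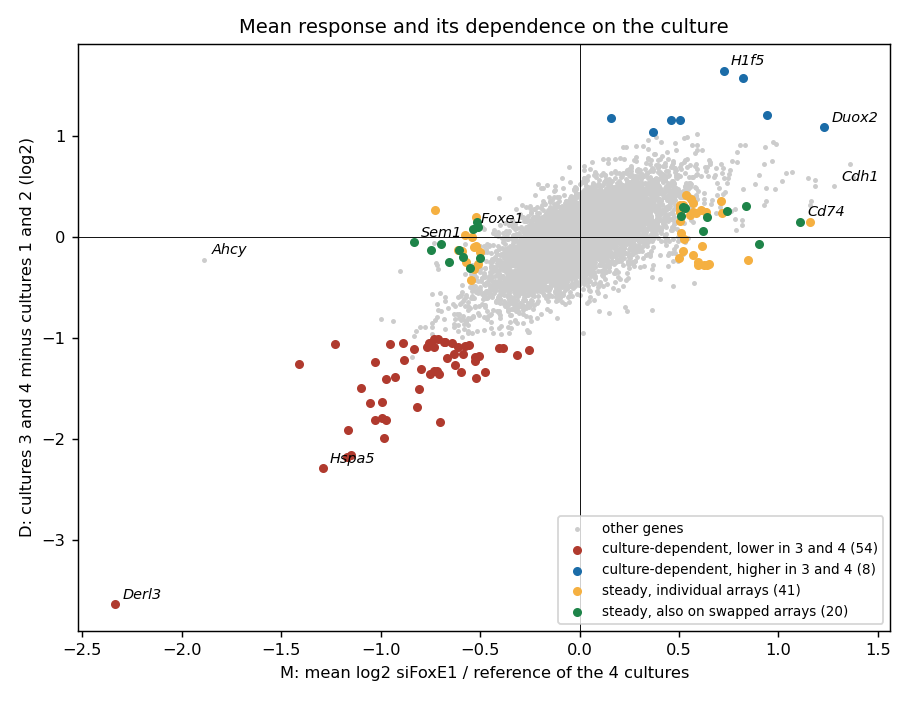
Each point is a gene, with the mean log2 ratio of 4 cultures, M, on the horizontal axis and the difference between cultures 3 and 4 and cultures 1 and 2, D, on the vertical axis. The 54 culture-dependent lower genes lie at the bottom, far from steady genes such as Cd74 at an M of 1.11. M and D are computed from the same 4 culture values, which spread more in cultures 3 and 4, so the slant of the cloud is not a result.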

How the data were processed

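Gene expression was measured on 2-colour Agilent arrays. The deposited spot intensities and log10 ratios of red over green were made by the authors in Feature Extraction 10.7.3.1. The authors' deposited file of normalized log2 ratios, for which the submitters' notes name limma 3.2.3, served as an alternative. Dyes follow the labels. The colour key in the study's design drawing is the reverse of them, and with the labels Foxe1 was lower in the siFoxE1 channel on all 10 arrays.

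Median spot intensities were background-corrected (normexp, offset 50), normalized within arrays by loess and between arrays by quantiles, and averaged per probe in limma 3.58.1 (R 4.3.3, data.table version 1.17.8). Control and outlier spots (1.25 to 1.60%) were left out. Probes entered the tests if 6 or more of 8 arrays had them well above background in 1 channel, and Benjamini-Hochberg adjustment ran over 17876 probes. Of 30367 probes, 17998 were named by accession, 139 through a list of the study, and 12230 had no name. limma was fitted to the 4 culture values, with 2 residual degrees of freedom for D and 3 for M, and was checked on simulated data. The mean spot signals named as an alternative were not run. One gene of the rule is not reported here.

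The culture split, the members and the gene lists were chosen with earlier results of these data known. Named genes were the 15 lowest and highest D among culture-dependent genes, the 12 lowest and highest M among steady genes kept on swapped arrays, Foxe1, the genes the study measured by qPCR, and up to 6 members per list. Genes outside this rule, such as promoter matches, genes near a limit and swapped-array examples, were chosen after their values were seen. Same-numbered arrays deviated together from the mean of their comparison (r = 0.615, 0.756, 0.762 and 0.404 across probes for numbers 1 to 4, -0.648 to 0.505 between numbers), and the pairing itself comes from the study's design. Plots were drawn with matplotlib 3.10.9 and summaries made with numpy 2.4.6 and pandas 2.3.3 in Python 3.11.15.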

Additional observations from a re-analysis of the deposited data

Results flagged for a closer look

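In 3 genes 1 of the 4 culture values stood far from the others, by a gap given as a share of the whole range, which chance does in about 1 in 20 groups of values. The share was 0.9001 for Cd74, where culture 2 was the lowest at 0.87, 0.8387 for Foxe1, where culture 1 was the lowest at -0.65, and 0.8555 for Tg, where culture 4 was the highest at -0.08. In all of them the range was small, with 0.33 for Cd74 and 0.16 for Foxe1. Tk1 was below 0 in cultures 1 and 2 and above 0 in cultures 3 and 4, and its D of 1.1826 passed limma (adjusted p = 0.0195).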

How the results depend on the processing

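Of 741 values under the alternatives none changed direction, 531 kept their side of the threshold, 187 no longer passed, 17 newly passed and 6 moved by more than their spread. The 54 lower genes kept a D below 0 in every setting that tested them, a sign largely set by choosing the class on D. The filter for probes well above background on all 8 arrays left out the probes of 6 of them. Counted anew in each setting, 16 of the 33 ER chaperones were culture-dependent with the Agilent processed signals and with wt arrays only. With siScramble arrays only there were 13, and without culture 3 there were 10. The counts depended more on the setting. Against 54 lower and 8 higher culture-dependent genes, the Agilent processed signals gave 149 and 52, a limit of 1.5-fold gave 264 and 179, and a D of at least 1.5 gave 14 and 2. For the higher genes, siScramble arrays only gave 3 and wt arrays only 28. Leaving out each culture gave 24 to 106 lower and 11 to 30 higher. For D by limma (349 lower and 238 higher), the Agilent processed signals, no filter on dim probes and wt arrays only each gave 0 and 0 (unadjusted p under 0.05 for 2240, 3306 and 1729 genes), siScramble arrays only gave 661 and 504, and the median over the probes of a gene gave 198 and 106. Leaving out each culture gave 0 to 559 and 0 to 498, the lowest without culture 2. For M by limma (173 and 239), the Agilent processed signals gave 29 and 68, loess alone 279 lower, ratios scaled to one spread 678 and 684, wt arrays only 48 and 97, and the median over probes 69 and about 1.1e+02. Leaving out each culture gave 1 to 582 and 1 to 675, the highest without culture 2. On the single arrays, the replicate block gave 674 and 576 for D and 1011 and 1002 for M, and no replicate block gave 1062 and 1127 for D and 1785 and 1646 for M. Against 24 lower and 37 higher steady genes, the Agilent processed signals gave 55 and 70, a range of at most 0.3 gave 7 and 8, a range of at most 1 gave 82 and 128, siScramble arrays only gave 21 higher, and leaving out each culture gave 23 to 115 and 42 to 183. The cause of these changes was not tested. Precision was limited by 2 cultures on each side and, for dim probes, by signal over background: 6 of the 54 lower genes, among them Ero1b and Igf2bp2, were not well above background on all 8 arrays. The steady class rests on the dye, which only the pooled arrays check, and these were made from the same cultures.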
